A study of Drosophila melanogaster with 24 samples.

Results

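The arrays compared here are the 12 male arrays of a study of the nuclear receptor gene Hr96, split by the batch of diet on which the flies were reared. Diet batch 2 gave 4 arrays, 1 from each of 4 genotypes, and diet batches 1 and 3 gave 8 arrays, 1 from each genotype in each batch, out of 24 arrays in all. The replicate number in the labels marks the batch, and the batches followed 1 recipe and were prepared on different days. The recipe was a rich laboratory diet of yeast, sugars, treacle, cornmeal, wheatgerm and soya flour. Males were 0 to 3 days old and were frozen whole. The over-expression males carried Act5C-GAL4 and a UAS transgene for Hr96 (line 35) in a w background, and their control carried Act5C-GAL4. The males labelled knockdown carried arm-GAL4 and an RNA interference transgene against Hr96 (line 3), and their control carried arm-GAL4. Both drivers are active in most tissues of the fly, and each transgene is represented by 1 line.

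The question is which transcripts of young males differed between batches of nominally the same food. Log2 intensity was modelled on genotype and diet batch with limma. The batch 2 effect is the mean of batch 2 minus the mean of batches 1 and 3, so a positive log2 change means a higher level in batch 2. A probe set was called where its p-value, adjusted by Benjamini-Hochberg over 18769 probe sets, was under 0.05. All 4 arrays of a batch share 1 diet and whatever else was done alongside it, so the p-values compare these 3 batches and not diet preparation in general. The batch of diet and the round of rearing and collection cannot be told apart.

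Array medians of the 12 males lay between 63.4 and 66.3 intensity units, and arrays of the same genotype correlated at 0.983 to 0.992. The labelled sex was borne out by marker genes: in batch 2 males the seminal fluid protein gene Acp26Aa read 11.49 to 12.25 and in the other males 11.60 to 12.31, where the female means were 3.72 in batch 2 and 3.59 in batches 1 and 3. The sperm gene Mst84Da read 12.61 to 13.19 in batch 2 males and 12.39 to 13.02 in the others. The yolk protein gene Yp1, a female marker, averaged 4.52 in batch 2 males and 4.96 in the others. In the batch 1 Act5C-GAL4 control male Yp1 lay 1.514 above its genotype mean on the log2 scale. The other batch 1 males lay at -0.106 to 0.152. Hr96 read 7.61 in the batch 2 over-expression male array, against 9.28 and 9.39 in the same genotype in batches 1 and 3. It was still above the 6.35 to 6.90 of the other 3 genotypes. Its label is in doubt on these values, since Lsp2 and e, given with the tissue markers, also lay apart from the other arrays of that genotype, and it is called over-expression here by its label. Where a named gene lost its call without this array, this is stated, and several named values are also given without it. The arrays labelled knockdown, at 6.60 in batch 2 and 6.47 and 6.43 in batches 1 and 3, overlapped their control, at 6.68 in batch 2 and 6.35 and 6.90 in batches 1 and 3, so directions for that genotype refer to its label. With genotype means removed, the leading principal component (24.1% of the variance) spread the batches within the Act5C-GAL4 males. On it the batch 2 arrays scored 24.1 in over-expression males and 19.3 in their control, against -21 and -21.4 in batch 1 and -3.1 and 2.2 in batch 3. The arm-GAL4 arrays scored between -3.6 and 2.5 on it. The second component (22.2%) set batch 1 apart from batch 3, the 2 batches that are pooled here. Batch 1 arrays scored -22.9 to -3.2 on it, batch 3 arrays 6.6 to 25.2 and batch 2 arrays -9.8 to 1.3.

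De novo purine synthesis builds the purine ring stepwise on phosphoribosyl pyrophosphate and takes single carbon units from folate, which serine, glycine and sarcosine supply. In adult flies sugars and starch are split in the midgut by carbohydrases, and transcripts of several of these enzymes are known to respond to diet. The zinc finger factor encoded by sug (sugarbabe) is known as a sugar-induced regulator of lipid and sugar genes in the fat body and gut. The Imd pathway senses bacterial peptidoglycan in the gut and is held down by amidases, which degrade peptidoglycan, and by the protein encoded by pirk.

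Batch 2 differed from batches 1 and 3 in 40 of 18769 probe sets (0.213%), of which 34 were higher (0.181%) and 6 lower (0.0320%). In addition 732 probe sets were higher and 628 lower at an unadjusted p under 0.05. The called log2 changes had sizes from 0.60 to 2.05 with a median of 0.958, and 18 reached 2-fold. Each of the 34 had its batch 2 array above both other arrays of its genotype in all 4 genotypes, and each of the 6 had it below, where 2.04% of all probe sets were above and 1.64% below in this way. The 40 were chosen by the batch 2 difference on the same arrays, so this order largely follows from the choice and is only a description. Of the 40, 32 name a single gene (26 higher and 6 lower). The count depended on single arrays: it was 13 without the batch 2 Act5C-GAL4 control, 17 without the batch 2 arm-GAL4 control, 23 without the batch 3 arm-GAL4 control and 30 without the batch 2 over-expression array. It was 63 when batches 1 and 3 had a level each in the model and 15 when the spread was estimated over all 24 arrays.

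Several enzyme genes of purine synthesis and one-carbon metabolism rose in batch 2 males. Of 26 genes on a list of purine, pyrimidine and one-carbon enzymes, 5 rose (Gart, Shmt, Pfas, Nmdmc and Sardh) and 0 fell, where 0.217% of all 11982 genes rose and 0.0501% fell. The list had a median log2 change of 0.24, with 17 of 26 above 0, beside a median of -0.01 over all genes. At an unadjusted p under 0.05 it held 14 higher and 2 lower genes, where 3.94% of all genes were higher and 4.57% lower. Below, the 4 log2 intensities of batch 2 are given in the order over-expression, Act5C-GAL4 control, labelled knockdown and arm-GAL4 control, and the 8 arrays of batches 1 and 3 by their lowest, median and highest value. Where the 2 groups are said not to overlap, this is only a description. The share of all probe sets without overlap is not given.

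Gart encodes the enzyme that carries out 3 of the early steps of purine ring assembly. It read 9.60, 9.19, 8.35 and 8.73 in batch 2, against 7.02, 7.50 and 8.46 in batches 1 and 3. In each genotype the batch 2 male array was the highest, although the labelled-knockdown value lay below the highest array of the other batches, which was an over-expression array. The rise was 2.60-fold (log2 change 1.38, SE 0.12, limma adjusted p = 1.4e-04). Pfas, whose product acts between the steps carried out by Gart, read 9.41, 8.17, 7.86 and 7.84 in batch 2, against 6.93, 7.33 and 7.99 in batches 1 and 3. Its rise was 1.94-fold (log2 change 0.96, SE 0.13, limma adjusted p = 0.0072), and the over-expression array stood above the other 3 batch 2 arrays. Prps, which makes phosphoribosyl pyrophosphate and was not on the list, read 11.18, 11.41, 10.77 and 11.16 in batch 2, against 9.98, 10.23 and 10.46 in batches 1 and 3. All 4 batch 2 arrays thus lay above all 8 others, by 1.90-fold in the mean (log2 change 0.92, SE 0.10, limma adjusted p = 0.00141).

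The one-carbon enzymes that rose are mitochondrial or act on serine and sarcosine. Shmt, serine hydroxymethyltransferase, which moves a carbon from serine to folate, read 10.79, 10.59, 9.72 and 10.23 in batch 2, against 8.60, 9.30 and 10.21 in batches 1 and 3 (2.01-fold, log2 change 1.00, SE 0.13, limma adjusted p = 0.0072). Nmdmc, a mitochondrial methylene-tetrahydrofolate dehydrogenase, read 9.86, 9.37, 8.32 and 8.96 in batch 2, against 7.56, 7.73 and 8.72 in batches 1 and 3 (2.15-fold, log2 change 1.10, SE 0.15, limma adjusted p = 0.00909). The ranges overlapped for both genes because genotypes differed in level, and within each genotype the batch 2 array was the highest. Sardh, sarcosine dehydrogenase, read 6.66, 5.83, 5.25 and 5.54 in batch 2, against 4.39, 5.14 and 5.68 in batches 1 and 3 (1.63-fold, log2 change 0.71, SE 0.12, limma adjusted p = 0.0223); it was named after its values were seen. The calls of Gart, Pfas, Prps and Shmt held on leaving out any 1 of the 12 arrays. Nmdmc was no longer called without the batch 2 Act5C-GAL4 control or the batch 2 arm-GAL4 control (adjusted p = 0.0747 to 0.0984). Without the batch 2 arm-GAL4 control the list held 3 calls. Sardh lost its call without any of 6 arrays: over-expression of batch 2 or 3, labelled knockdown of batch 2, or the arm-GAL4 control of batch 1, 2 or 3 (adjusted p = 0.0519 to 0.153).

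**Figure D1:**
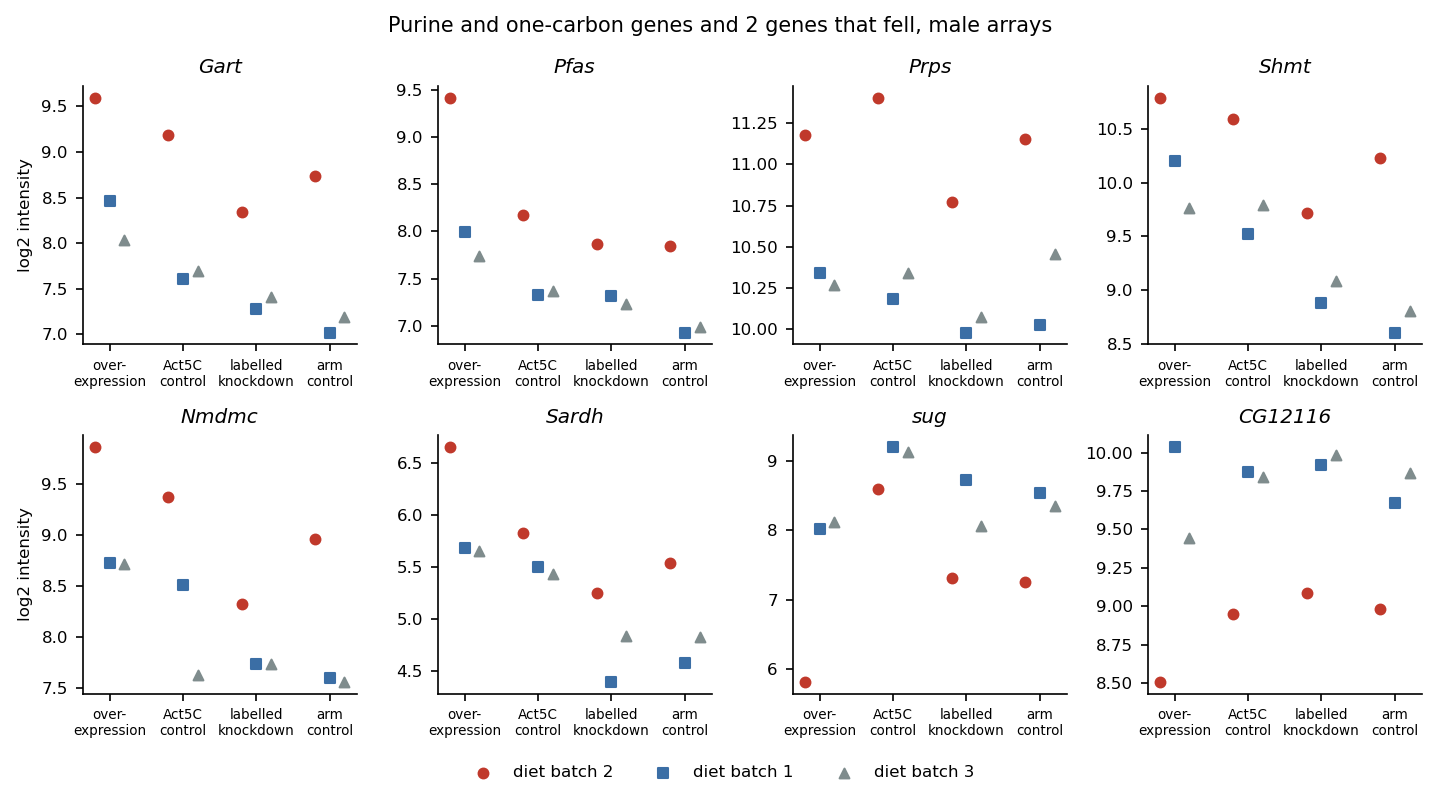
Log2 intensity of 6 purine and one-carbon genes that rose and of sug and CG12116, which fell, in each male genotype (x axis) and diet batch (colour and shape), 1 point per array. The batch 2 point is the highest of its genotype in the first 6 panels and the lowest in the last 2, and for Prps and CG12116 the 4 batch 2 points stand clear of all 8 others.

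Other members of the list lay in the same direction without passing the test. The folate enzyme gene pug had a log2 change of 0.63 (SE 0.13, limma adjusted p = 0.105) and Paics, of the middle of the purine pathway, one of 0.55 (SE 0.13, adjusted p = 0.212). Gnmt, glycine N-methyltransferase, which makes sarcosine, had a log2 change of 1.32 with an SE of 0.36 (adjusted p = 0.310), since the over-expression male read 7.40 in batch 2 where the other 3 genotypes read 9.74, 9.86 and 9.96. Without that array its change was 1.81 (adjusted p = 0.0527). Among the de novo pyrimidine genes, r had a log2 change of -0.24 (adjusted p = 0.643) and r-l one of -0.40 (adjusted p = 0.561). The guanine nucleotide gene ras had one of -0.21 (adjusted p = 0.707).

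Of 21 carbohydrase genes 2 rose in batch 2 (Mal-A4 and Amyrel) and 0 fell, where 0.217% of all genes rose and 0.0501% fell. The list's median log2 change was 0.77, with 18 of 21 above 0. At an unadjusted p under 0.05, 15 were higher and 0 lower, where 3.94% of all genes were higher and 4.57% lower. By genotype the median of the 21 was 0.21 in over-expression males, 0.51 in their Act5C-GAL4 control, 1.07 in labelled-knockdown males and 0.83 in their arm-GAL4 control, and 11 genes were above 0 in all 4. In over-expression males 14 of the 21 were above 0. In whole flies, more cells of a gut type and more RNA per cell cannot be told apart. Genes of digestive proteases, also made in the gut, had a median of 0.09 over 39 genes, with 28 above 0. Without the batch 2 over-expression array the medians were 0.91 for carbohydrases and 0.26 for proteases.

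Mal-A4, a maltase, read 9.75, 9.93, 10.72 and 10.46 in batch 2, against 8.73, 8.99 and 10.01 in batches 1 and 3. Its rise was 2.10-fold (log2 change 1.07, SE 0.18, limma adjusted p = 0.0298), and the batch 2 array was the highest of its genotype in all 4. Amyrel, an amylase-related gene, read 7.01, 6.90, 6.19 and 5.96 in batch 2, against 5.44, 5.70 and 6.25 in batches 1 and 3, a rise of 1.7-fold (log2 change 0.77, SE 0.14, limma adjusted p = 0.0349). The call of Mal-A4 was lost without any of 6 arrays (batch 2 of each genotype, the batch 1 Act5C-GAL4 control or batch 3 over-expression; adjusted p = 0.0601 to 0.183). The call of Amyrel was lost without any of 9, namely all but batch 1 over-expression and the arm-GAL4 controls of batches 1 and 2 (adjusted p = 0.0525 to 0.295).

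A called probe set that lists several alpha-amylase copies, from which no single gene is named, read 12.51, 13.43, 13.54 and 13.40 in batch 2, against 11.39 to 13.22 in batches 1 and 3 (log2 change 0.77, limma adjusted p = 0.0186). Its call was lost without the batch 2 over-expression array or either batch 2 control (adjusted p = 0.0617 to 0.180).

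Other maltase genes of the Mal-A cluster did not pass. Mal-A7 had a log2 change of 1.41 (SE 0.38, limma adjusted p = 0.296), Mal-A1 one of 0.97 (SE 0.26, adjusted p = 0.296) and Mal-A3 one of 0.93 (SE 0.18, adjusted p = 0.0704). For Mal-A3 all 4 batch 2 arrays, at 8.55, 8.79, 9.46 and 9.17, lay above the 7.57 to 8.43 of the other batches. The log2 change was 1.37 against batch 1 and 0.57 against batch 3 for Mal-A1, and 1.91 and 0.91 for Mal-A7. The difference between these, which is batch 3 against batch 1, did not pass for either gene. It was 0.80 for Mal-A1 (SE 0.21, limma adjusted p = 0.135) and 1.00 for Mal-A7 (SE 0.35, limma adjusted p = 0.254). The 3 carbohydrase genes below 0 had changes no lower than -0.12.

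The 6 alpha-mannosidase genes (LManI to LManVI) had a larger batch 2 effect in both arm-GAL4 genotypes than in both Act5C-GAL4 genotypes, a difference that passed the test for LManV alone. LManIII read 10.00 in labelled-knockdown males of batch 2, against 7.88 and 7.43 in batches 1 and 3, and 9.89 in their arm-GAL4 control of batch 2, against 7.40 and 7.39. In over-expression males it read 8.07 in batch 2, against 8.01 and 8.29. LManV read 11.45 in labelled-knockdown and 11.16 in arm-GAL4 control males of batch 2, against 9.45 to 9.65 in batches 1 and 3 of these genotypes. In the Act5C-GAL4 genotypes it read 9.01 with over-expression and 10.35 in the control in batch 2, against 9.49 to 10.40 in batches 1 and 3. The batch 2 effect on LManV was therefore lower in the Act5C-GAL4 than in the arm-GAL4 genotypes, by a log2 difference of -2.05 (SE 0.24, limma adjusted p = 0.0122). This comparison of drivers was added after the data were seen. With diet batch as a block it counted 6 probe sets, LManV and CG18585 among them (adjusted p = 0.0144 for both), and without a block it counted 5 probe sets without the batch 3 labelled knockdown and 26 and 41 without the Act5C-GAL4 control of batch 2 or 3. CG18585 was the only other probe set of 18769 that differed (2 in all, 0.0107%): its batch 2 effect was -1.21 in over-expression and -0.71 in Act5C-GAL4 control males but 1.13 in labelled-knockdown and 0.73 in arm-GAL4 control males (difference -1.89, SE 0.22, adjusted p = 0.0122). Both calls were lost without the batch 2 over-expression, batch 2 labelled-knockdown, batch 2 arm-GAL4 control or batch 3 arm-GAL4 control array (adjusted p = 0.0773 to 0.202). LManIII, not called over all genotypes (log2 change 1.45, SE 0.31, adjusted p = 0.105), was called without the batch 2 over-expression array (1.96, adjusted p = 0.00221).

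**Figure D2:**
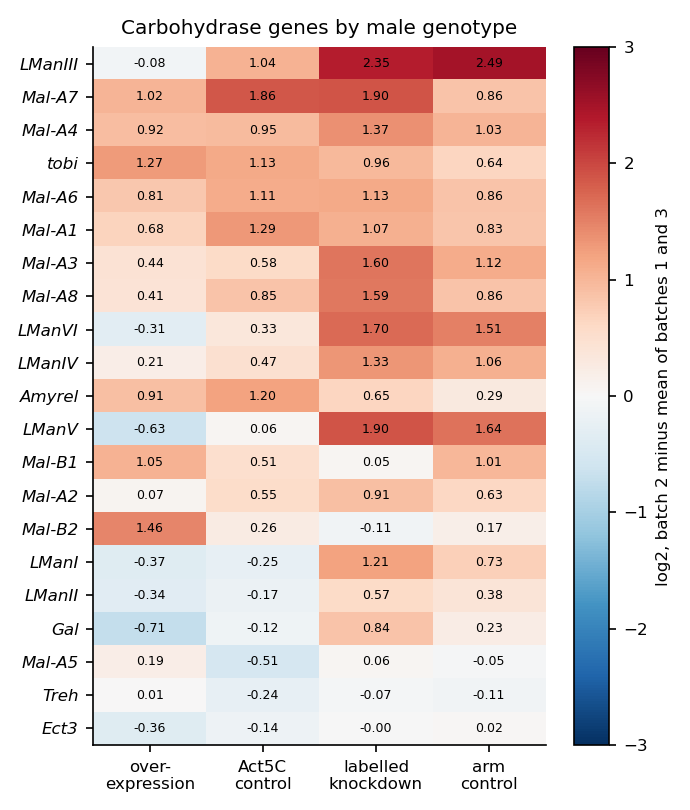
Log2 change of batch 2 against the mean of batches 1 and 3 for 21 carbohydrase genes (rows, ordered by the mean change) in each male genotype (columns), with the value in each cell. Mal-A4, Mal-A6 and Mal-A1 are above 0 in every column, whereas the 6 LMan genes are higher in the labelled-knockdown and arm-GAL4 control columns than in the others and lie between -0.63 and 0.21 with over-expression.

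Digestive proteases, beside the carbohydrases, had members that rose. Of 39 digestive protease genes 3 rose and 0 fell, where 0.217% of all genes rose and 0.0501% fell. Jon99Ci, a serine protease of the Jonah family, read 10.55, 12.11, 11.91 and 11.86 in batch 2, against 9.37, 10.74 and 11.04 in batches 1 and 3 (2.09-fold, log2 change 1.06, SE 0.17, limma adjusted p = 0.0223). CG18180 and CG18179, serine protease genes, rose 1.89-fold (SE 0.15 on the log2 scale, adjusted p = 0.0225) and 1.94-fold (SE 0.17, adjusted p = 0.0306). Among the batch 2 arrays all 3 genes read lowest in over-expression males, where the batch 2 array was still above those of batches 1 and 3. All 3 calls were lost without the batch 2 Act5C-GAL4 control, arm-GAL4 control or labelled knockdown, the batch 1 labelled knockdown or the batch 3 arm-GAL4 control. That of Jon99Ci was also lost without the batch 1 arm-GAL4 control, and that of CG18179 without over-expression of batch 2 or 3, the batch 1 Act5C-GAL4 control or the batch 3 labelled knockdown (adjusted p = 0.0503 to 0.244).

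Of 29 lipase genes with a probe set of their own CG6283 rose and 0 fell, with a list median of 0.10. Of all genes 0.217% rose and 0.0501% fell. The called probe set with the smallest p lists 2 genes, at least 1 of them on the lipase list, and is given below with those that list several genes. CG6283 read 10.09, 8.88, 9.44 and 9.61 in batch 2, against 6.79, 8.0 and 8.92 in batches 1 and 3. Its rise was 2.84-fold (log2 change 1.51, SE 0.23, limma adjusted p = 0.0186), and only the Act5C-GAL4 control of batch 2 lay within the range of the other batches. The call was lost without the batch 2 over-expression, Act5C-GAL4 control or labelled-knockdown array (adjusted p = 0.0561 to 0.113). The lipase gene CG8093 had a log2 change of 0.75 (adjusted p = 0.0654), which passed without the batch 2 over-expression array (0.94, adjusted p = 0.0126). bmm, the fat body triglyceride lipase brummer, had a change of 0.57 (SE 0.12, adjusted p = 0.0898). CG17192, another lipase gene, lay the other way at -1.14 (SE 0.29, adjusted p = 0.233).

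PGRP-LB and pirk, both negative regulators of the Imd pathway, rose, while no antimicrobial peptide gene was called. PGRP-LB, an amidase that degrades peptidoglycan, read 6.64, 7.47, 6.72 and 6.69 in batch 2, against 5.74, 6.03 and 6.15 in batches 1 and 3. The rise was 1.86-fold (log2 change 0.90, SE 0.12, limma adjusted p = 0.00884). pirk read 8.30, 9.85, 8.28 and 8.46 in batch 2, against 6.69, 7.47 and 7.81 in batches 1 and 3, a rise of 2.54-fold (log2 change 1.35, SE 0.18, limma adjusted p = 0.0072). For both genes every batch 2 array lay above every other array, the Act5C-GAL4 control highest, and both calls held on leaving out any 1 array. Of 39 genes of antimicrobial peptides and immune effectors, pirk was the 1 that rose, 0 fell, and the median log2 change was -0.04 with 16 above 0. Of all genes 0.217% rose and 0.0501% fell. Listericin, an antibacterial peptide gene, had a change of 0.96 with an SE of 0.40 (adjusted p = 0.625), and of 1.43 (adjusted p = 0.310) without the batch 2 over-expression array. A called probe set that lists only copies of PGRP-SC1, an amidase, had the largest change of the 40: it read 8.52, 10.71, 9.85 and 10.01 in batch 2, against 6.88 to 8.57 in batches 1 and 3 (4.13-fold, log2 change 2.05, limma adjusted p = 0.0223). Its call was lost without the batch 2 Act5C-GAL4 control or labelled knockdown or the arm-GAL4 control of any batch (adjusted p = 0.0556 to 0.183). Of 5 genes of lysozymes and amidases with a probe set of their own PGRP-LB was the 1 that rose, and PGRP-SC2, also an amidase, had a change of 0.87 (SE 0.22, adjusted p = 0.233).

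Among the 26 named rises were several genes of no stated role. CG14499 read 7.85, 7.37, 7.17 and 7.79 in batch 2, against 5.37, 6.01 and 6.46 in batches 1 and 3 (2.94-fold, log2 change 1.56, SE 0.14, limma adjusted p = 3.5e-04). CG13309 read 9.35, 9.94, 9.24 and 9.45 in batch 2, against 8.35, 8.46 and 8.96 in batches 1 and 3 (1.98-fold, log2 change 0.99, SE 0.10, limma adjusted p = 7.4e-04). Neither gene's groups overlapped, and both calls held on leaving out any 1 array. CG13324 rose 2.36-fold (SE 0.17 on the log2 scale, adjusted p = 0.00909), CG34316 rose 2.12-fold (SE 0.16, adjusted p = 0.0148) and CG13947 rose 2.22-fold (SE 0.20, adjusted p = 0.0301). The groups of CG13324 and CG34316 did not overlap. CG13324 was not called without the batch 2 Act5C-GAL4 control (adjusted p = 0.0873), CG34316 without the batch 2 array of either control or of the labelled knockdown (0.0710 to 0.0993), and CG13947 without any of 8 arrays (0.0503 to 0.217), all but the batch 3 Act5C-GAL4 control, batch 1 Act5C-GAL4 control and the labelled knockdowns of batches 2 and 3. Got2, mitochondrial aspartate aminotransferase, rose least of the called genes (1.52-fold, log2 change 0.60, SE 0.11, adjusted p = 0.0414); its call was lost without any of 10 arrays (0.0579 to 0.272), all but batch 1 over-expression and the batch 1 arm-GAL4 control, and it was named after its values were seen. The 8 called probe sets that list several genes, from which no single gene is named here, all rose, with log2 changes from 0.75 to 2.05. The one with the smallest p, which lists 2 genes, read 10.25, 8.98, 8.87 and 9.76 in batch 2, against 6.28, 7.41 and 8.35 in batches 1 and 3 (log2 change 2.00, SE 0.16, limma adjusted p = 1.3e-04). At least 1 of these 2 genes is on the lipase list.

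The 6 probe sets that fell each name 1 gene. sug read 5.82, 8.59, 7.31 and 7.25 in batch 2, against 8.02, 8.45 and 9.20 in batches 1 and 3. It was 2.42-fold lower in batch 2 (log2 change -1.28, SE 0.20, limma adjusted p = 0.0186). The over-expression male was lowest, and the Act5C-GAL4 control of batch 2 lay within the range of the other batches. Without the over-expression array the change was -0.95 and the call held. It was lost without the arm-GAL4 control of any of the 3 batches or the batch 2 labelled knockdown (adjusted p = 0.0514 to 0.0993). CG12116 read 8.51, 8.95, 9.09 and 8.98 in batch 2, against 9.44, 9.87 and 10.04 in batches 1 and 3, so that the groups did not overlap. It was 1.93-fold lower (log2 change -0.95, SE 0.12, limma adjusted p = 0.00369), and the call held on leaving out any 1 array.

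CG30281 read 5.12, 5.25, 5.99 and 5.41 in batch 2, against 6.33, 6.73 and 7.61 in batches 1 and 3 (2.56-fold lower, log2 change -1.36, SE 0.20, limma adjusted p = 0.0139), also without overlap. Pdh, a retinol dehydrogenase of the eye's pigment cells, read 9.94, 10.60, 10.89 and 10.62 in batch 2, against 10.48, 11.42 and 11.75 in batches 1 and 3 (1.74-fold lower, log2 change -0.80, SE 0.13, limma adjusted p = 0.0186). Beside it, 23 photoreceptor genes had a median log2 change of -0.17, with 8 above 0 and 0 called, and their part in the fall of Pdh was not tested. CG13607 was 1.78-fold lower (SE 0.14 on the log2 scale, adjusted p = 0.0223). CG17562, annotated as a fatty acyl-CoA reductase, was 1.60-fold lower (SE 0.12, adjusted p = 0.0344). The calls of CG30281 and Pdh were lost without the batch 2 over-expression array or either batch 2 control (adjusted p = 0.0506 to 0.193). Those of CG13607 and CG17562 were lost without any of these 3, without over-expression or the arm-GAL4 control of batch 3, and for CG17562 also without the batch 2 or 3 labelled knockdown or the batch 3 Act5C-GAL4 control (0.0506 to 0.226). By the rule for named genes the next 4 genes by p in this direction, not called, were Sgp at -0.62 (adjusted p = 0.0534), Odc1, ornithine decarboxylase, at -0.76 (0.0534), CG13877 at -0.65 (0.0608) and CG33494 at -0.54 (0.0618).

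Hormone genes of feeding and fasting showed no common direction. Of 24 insulin, adipokinetic hormone and fasting genes sug alone fell, 0 rose, and the median log2 change was 0.00. Of all genes 0.0501% fell and 0.217% rose. AkhR, the receptor of adipokinetic hormone, had a log2 change of -0.61 (SE 0.13, limma adjusted p = 0.0922) and was below both other arrays in all 4 genotypes. The peptide hormone genes CCHa2, Ilp5 and Ilp2 had changes of -0.79 (SE 0.23, adjusted p = 0.386), -0.49 (SE 0.15, 0.421) and -0.42 (SE 0.18, 0.639). Without the batch 2 over-expression array the change of CCHa2 was -0.42 (adjusted p = 0.732). With a level each for batches 1 and 3 in the model, AkhR passed (adjusted p = 0.00982).

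No respiratory chain gene passed the test, and most had a log2 change below 0. Of 76 respiratory chain and ATP synthase genes 0 were called, 5 had a log2 change above 0, and the median was -0.20. At an unadjusted p under 0.05, 32 of the 76 were lower and 1 higher, where 4.57% of all genes were lower. SdhD, a subunit of complex II, read 10.13, 10.18, 10.30 and 10.20 in batch 2, against 10.41, 10.49 and 10.93 in batches 1 and 3 (log2 change -0.36, SE 0.10, limma adjusted p = 0.341), and ND-ASHI, a subunit of complex I, had a change of -0.32 (SE 0.09, adjusted p = 0.386). For both genes the groups did not overlap although neither was called, and the share of all probe sets without overlap is not given. The list median was -0.30 in over-expression males, -0.28 in their control, -0.07 in labelled-knockdown males and -0.16 in their control. Among 71 mitochondrial ribosomal protein genes 2 were above 0 (median -0.13) and among 30 proteasome genes 2 were above 0 (median -0.17), with 0 called in either. Of 15 fatty acid oxidation genes, most of them mitochondrial, 11 were above 0 (median 0.03, 0 called). Of 29 muscle genes 7 were above 0 (median -0.18, 0 called).

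**Figure D3:**
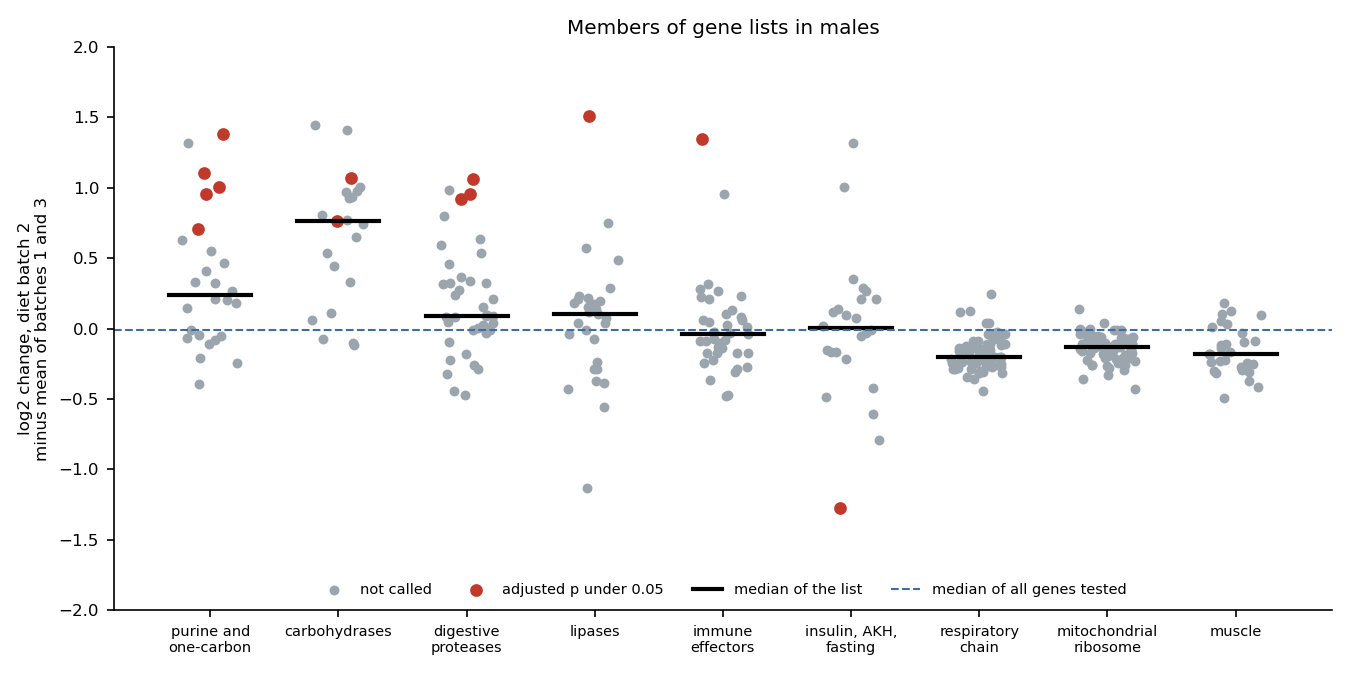
Log2 change of batch 2 against batches 1 and 3 in males for the genes of 9 lists (grey points, not called; red points, adjusted p under 0.05), with the median of each list (black bar) and of all genes tested (dashed line, -0.01). The carbohydrase median of 0.77 stands highest, the 5 called purine and one-carbon genes lie between 0.71 and 1.38, and the respiratory chain genes cluster around -0.20.

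The other lists, which hold only genes with a probe set of their own, held 0 calls. Of 18 clock genes tim had a log2 change of 0.92 (SE 0.21, limma adjusted p = 0.152), and its batch 2 arrays, at 9.95, 10.26, 10.02 and 10.37, lay above the 8.71 to 9.92 of the others. It was 0.56 higher than in batch 1 and 1.27 higher than in batch 3, and it passed with a level for each batch (adjusted p = 0.0067). Pdp1, a clock transcription factor, had a change of 0.59 (adjusted p = 0.160). Of 17 heat shock genes with a probe set of their own, stv, a co-chaperone, had a change of 0.52 (adjusted p = 0.128) and DnaJ-1 one of 0.42 (adjusted p = 0.389). Heat shock transcripts were called in 2 probe sets that list only Hsp70 copies, which rose 2.61-fold (adjusted p = 0.0186) and 2.97-fold (adjusted p = 0.0223). The 2 probe sets share gene copies, so they are not separate results. Their batch 2 effect was 0.27 and 0.29 in over-expression males, against 1.53 to 2.25 in the other genotypes. Both calls were lost without the batch 2 Act5C-GAL4 control, arm-GAL4 control or labelled knockdown or the batch 3 arm-GAL4 control, and the second also without the batch 1 arm-GAL4 control (adjusted p = 0.0519 to 0.218). Detoxification genes had medians of 0.05 over 83 cytochrome P450 genes, 0.12 over 35 glutathione S-transferases and 0.04 over 35 UDP-glycosyltransferases. Ugt35C1 had the smallest p of these, with a change of 0.70 (SE 0.14, adjusted p = 0.0898).

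Marker lists of other tissues had medians near 0. These were 0.00 over 58 testis genes, 0.01 over 43 accessory gland genes, 0.03 over 19 yolk and egg coat genes, 0.08 over 34 neuron genes, -0.03 over 18 haemocyte genes and 0.01 over 109 cuticle genes. Of 4 larval serum and fat body genes 2 were above 0 and 0 were called, with changes from -0.36 to 1.22, and of 14 cuticle tanning genes 5 were above 0 and 0 were called (median -0.08). By p, the first of these lists was led by Lip3 (0.49, adjusted p = 0.577) and Lsp2 and the second by Mco1 (0.27, adjusted p = 0.548) and e. Lsp2, a larval serum protein gene, read 7.99 in batch 2 over-expression males, against 9.88 and 9.72 in batches 1 and 3, but 11.23, 11.26 and 9.99 in batch 2 of the other genotypes, against 7.54 to 9.47. Its log2 change was 1.22 (SE 0.52, adjusted p = 0.631), and 2.22 (adjusted p = 0.00208) without the batch 2 over-expression array. The tanning gene e (ebony) read 6.94 in batch 2 over-expression males, against 9.94 and 8.87 in batches 1 and 3, while the other genotypes lay between 6.03 and 6.45 in batch 2, against 5.91 to 7.31 (log2 change over all genotypes -0.83, adjusted p = 0.574; without the batch 2 over-expression array -0.28, adjusted p = 0.887). The labels give no age within the span of 0 to 3 days, and the part of age was not tested.

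With a level for each batch, 111 probe sets differed between batches 2 and 1 (0.591%; 90 higher and 21 lower in batch 2), 30 between batches 2 and 3 (0.160%; 17 higher and 13 lower) and 16 between batches 3 and 1 (0.0852%; 14 higher and 2 lower in batch 3). At an unadjusted p under 0.05 the order was another, with 2008 between batches 2 and 1, 1758 between batches 2 and 3 and 2436 between batches 3 and 1. These comparisons share arrays, so they are only set side by side. Gart was 1.37 higher on the log2 scale than in batch 1 and 1.38 higher than in batch 3, Prps 1.00 and 0.85, pirk 1.29 and 1.40, and CG14499 1.58 and 1.53. sug had log2 changes of -1.38 against batch 1 and -1.17 against batch 3. The carbohydrase median was 0.70 against batch 1 and 0.57 against batch 3. CG17560, annotated as a fatty acyl-CoA reductase like CG17562, had the smallest p between batches 3 and 1 (log2 change 1.21, SE 0.12, limma adjusted p = 0.00334). It read 8.59 to 10.38 in batch 3 males, against 7.75 to 9.06 in batch 1, with 7.45 to 9.01 in batch 2. Its call was lost without the batch 3 labelled knockdown (adjusted p = 0.0546). The counts moved with single arrays. That of batches 2 and 1 was 33 without the batch 2 Act5C-GAL4 control, 44, 54 and 47 without the batch 1 Act5C-GAL4 control, arm-GAL4 control or labelled knockdown, and 71 and 73 without the batch 3 arm-GAL4 control or labelled knockdown. That of batches 2 and 3 was 8 without the batch 2 Act5C-GAL4 control, 10, 9 and 13 without the batch 3 Act5C-GAL4 control, arm-GAL4 control or labelled knockdown, and 52 and 53 without over-expression of batch 1 or 2. Between batches 3 and 1 it was 87, 80 and 68 without over-expression of batch 1, 2 or 3, 3 and 1 without the batch 1 Act5C-GAL4 or arm-GAL4 control, 9 without the batch 2 arm-GAL4 control, 1 without either batch 3 control and 0 without the batch 3 labelled knockdown.

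The female arrays of the same diets, fitted in the same way after the male results were seen, give the same diets in other animals. All 34 male rises were above 0 in females and all 6 male falls below 0, as means over the 4 genotypes. The share of all probe sets with the same sign in both sexes is not given here. The median log2 change of the 34 was 0.97 in males and 0.78 in females, and that of the 6 was -0.89 in males and -1.25 in females. In females 43 probe sets were called (0.229%), 8 higher (0.0426%) and 35 lower (0.186%), and 4 of the 40 male calls were among them: CG18179 higher, and sug, CG12116 and CG13607 lower. sug read 6.07, 7.63, 7.86 and 8.0 in batch 2 females, against 8.86 to 10.01 in batches 1 and 3 (log2 change -2.06, SE 0.28, limma adjusted p = 0.0218). CG12116 read 10.19, 9.47, 9.05 and 8.92 in batch 2 females, against 10.24 to 11.18 in batches 1 and 3 (log2 change -1.34, SE 0.19, adjusted p = 0.0291). In both genes the female groups did not overlap. Gart was not called in females (log2 change 0.93, SE 0.30, adjusted p = 0.343): it read 11.07 in batch 2 over-expression females but 8.82, 8.49 and 8.98 in the other 3 genotypes, against 8.22 to 8.60 in batches 1 and 3. Pfas and CG6283 were likewise highest in batch 2 over-expression females, at 11.08 and 11.22. In labelled-knockdown females the batch 2 array lay below both others for CG6283 (6.53, against 6.89 and 6.62), CG13324 and Mal-A4. The same held for Shmt (10.42, against 10.44 and 10.48), CG9672, CG31106, CG32054, CG13323 and a called probe set that lists several genes. For PGRP-LB the batch 2 labelled-knockdown array lay above both (6.28, against 5.68 and 6.12). The female count was 123 without the batch 2 over-expression array and 2 without the batch 2 array of either control. It was 16, 6, 12 and 27 without the batch 1 over-expression, Act5C-GAL4 control, arm-GAL4 control or labelled-knockdown array, and 9, 27 and 22 without the last 3 of these in batch 3.

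By limma 0 of the 40 male calls differed between males and females after adjustment, and 3 of them did at an unadjusted p under 0.05. Of all 18769 probe sets, 730 did at that unadjusted threshold. The 40 are therefore not shown to be free of a sex difference. Over all probe sets, the batch 2 effect in males minus that in females was called in 4 (0.0213%), each higher in males, with the level in females lower in batch 2. CG15571 had a difference of 2.39 (SE 0.38, limma adjusted p = 0.0244), from a log2 change of 0.11 in males and -2.28 in females. CG13084 had one of 2.05 (SE 0.32, adjusted p = 0.0244), from 0.19 in males and -1.87 in females. CG31926 had one of 1.94 (SE 0.27, adjusted p = 0.0122), from 0.48 in males and -1.47 in females, and CG13255 one of 0.77 (SE 0.13, adjusted p = 0.0483), from -0.20 in males and -0.97 in females. In batch 2 females CG13255 read 7.44 to 7.79, against 8.27 to 8.80 in batches 1 and 3. In males CG15571 lay between 3.85 and 4.41 in batch 2 and between 3.72 and 4.31 in the others, below the lower quartile of every male array (4.38 to 4.64) in all but 1 of the 12. CG31926 lay between 4.70 and 5.46 in batch 2 males and between 4.34 and 4.99 in the others. At such levels a fall in males could hardly be measured. CG13084 lay between 5.61 and 5.82 in batch 2 males and between 5.10 and 5.78 in the others. A male fall of the size seen in females would take it below the lower quartile. The differences of CG15571, CG31926 and CG13084 are therefore not comparisons of 2 measured changes. With the male and female arrays of 1 genotype and diet batch as a block, CG13255 was no longer called (adjusted p = 0.0728). The yolk and egg coat genes had a median of 0.03 in males and -1.51 in females. Their batch 2 male means ran from 3.92 (Vm32E) to 6.70 (Cp15). At the low end of this range a fall could hardly be measured, so these medians do not compare 2 measured changes. Of these genes Cp16 alone was called in females (log2 change -2.01, limma adjusted p = 0.0374). The count of 4 was 0 without the batch 2 Act5C-GAL4 control of either sex or the batch 2 arm-GAL4 control male, and 18 without the batch 2 labelled-knockdown female. It was 8 to 10 without the labelled-knockdown female of batch 1 or 3 or the batch 2 over-expression female, and 1 or 2 without any of 10 other arrays: the Act5C-GAL4 and arm-GAL4 controls of batch 1 in either sex, the batch 2 arm-GAL4 control female, the batch 2 or 3 over-expression and labelled-knockdown males, and the batch 3 arm-GAL4 control male. On leaving out each of 24 arrays, the call was lost 13 times for CG15571, 11 for CG13084, 18 for CG13255 and 3 for CG31926 (adjusted p up to 0.229). Of the carbohydrases, the median was 0.77 in males and 0.20 in females; Mal-A1 read a log2 change of 0.97 in males and -0.12 in females, a difference that did not pass (unadjusted p = 0.0186, adjusted p = 0.998), and LManIII one of 1.45 in males and 3.20 in females (unadjusted p = 0.00535, adjusted p = 0.927).

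**Figure D4:**
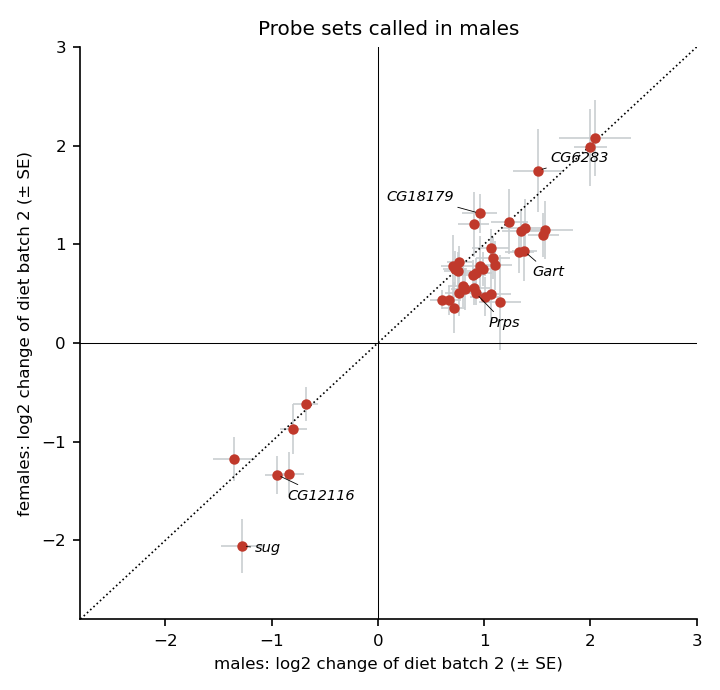
Log2 change of batch 2 in males (x axis) and females (y axis) for the 40 probe sets called in males, with standard errors; the dotted line marks equal changes. All points have the same sign in both sexes, sug lies below the line with -1.28 in males and -2.06 in females, and Prps lies below it with 0.92 in males and 0.50 in females.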

How the data were processed

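Whole-animal RNA was labelled with biotin and hybridised to Affymetrix arrays, 1 array for each genotype, sex and diet batch, per the labels. The submitters' processing notes name RMA, which corrects background, equalises array distributions and summarises each probe set; no version is given in the sources used here. The values deposited by the authors are linear intensities, and log2 was taken of them with no pseudocount and no further scaling. RMA compresses large differences.

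The table held 18952 probe sets, of which 183 were controls and were dropped. Of the 18769 tested, 13647 name 1 gene (11982 distinct), 402 several and 4720 none here; 13544 were matched to the RefSeq Release 6 table and 0 symbols changed. Lists used 1 probe set per gene. limma 3.58.1 in R 4.3.3 (lmFit, eBayes) fitted genotype and batch 2 to the 12 male arrays (7 residual and 6.49 prior degrees of freedom), two-sided, with Benjamini-Hochberg adjustment. Other fits gave each batch a level, compared the sexes over 24 arrays (male and female deviations of 1 genotype and diet batch, a batch the labels say is shared, correlated at 0.06 to 0.28 over 12 pairs), and, added after the data were seen, used the females alone or compared the drivers. The 4 male deviations of batch 2 correlated pairwise at -0.09 to 0.35. Each called gene named also had the smallest p (0.01235) that exact permutation of batch 2 within genotype allows (81 assignments), as a description. The labels call the replicates biological. Checks on simulated data preceded the fits. Figures used Python 3.11.15, pandas 2.3.3, numpy 2.4.6 and matplotlib 3.10.9.

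Members and the 37 lists were chosen with earlier results of these data known. Named genes were the 15 largest rises and falls that moved alike in all 4 genotypes, the smallest p up to 10 in a direction, up to 4 called (or 2 uncalled) list members, the 5 largest in the sex and batch 3 against 1 comparisons, and Hr96 and marker genes; other list members were named after their values were seen. w had no probe set of its own here. Alternatives were 3 batch levels, all 24 arrays, a minimum mean log2 of 5, a common median, quantile normalization, trend and robust eBayes, array weights, genotype left out, 1 probe set per gene, a 1.5-fold minimum, and leaving out a batch, a genotype or an array.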

Additional observations from a re-analysis of the deposited data

Results flagged for a closer look

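Within the groups of 4 arrays of 1 sex and batch, centred on genotype, 7 of 246 tested groups over 82 genes held an array far from the other 3; chance flags about 1 in 20. Pfas read -0.643 against its genotype mean in batch 3 over-expression males, Got2 -0.277 in the same array, Ugt35C1 0.274 in batch 2 over-expression males, Mco1 0.336 in the batch 2 arm-GAL4 control, a called probe set that lists 2 genes -0.245 in the batch 1 labelled-knockdown male, CG13255 -0.053 in the batch 3 Act5C-GAL4 control and Yp1 1.514 in the batch 1 Act5C-GAL4 control.

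By the test of the difference, the batch 2 effect differed between the sexes in CG15571 (2.39), CG13084 (2.05), CG31926 (1.94) and CG13255 (0.77). These values are males minus females on the log2 scale. In males CG15571 and CG31926 lay near the lower quartile of the arrays, where a fall could hardly be measured. CG13084 lay between 5.10 and 5.82 in males, from where a fall of the female size would reach below that quartile. The batch 2 effect differed between the Act5C-GAL4 and arm-GAL4 males in LManV (-2.05) and CG18585 (-1.89).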

How the results depend on the processing

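For the male comparison of batches no replicate block is possible, since the replicate number is the batch; genotype, which pairs the arrays, is in the model. With the male and female arrays of 1 genotype and batch as a replicate block, added after the data were seen, the sex differences numbered 6, 3 of them among the 4 without it, and the driver differences with batch as a block numbered 6 in place of 2. The 40 male calls became 63 with 3 batch levels, 15 over all 24 arrays, 58 with array weights, 6 without genotype in the model, and 11, 13 and 24 without the Act5C-GAL4 control, the arm-GAL4 control or the labelled knockdown, and 13 to 42 without 1 array. The 4 sex differences became 1 with 3 batch levels and 2 with trend and robust eBayes, and 0 to 18 without 1 array. The counts were 33 to 127 (batches 2 and 1), 8 to 53 (batches 2 and 3), 0 to 87 (batches 3 and 1, with 64 under trend and robust eBayes), 2 to 123 (females) and 0 to 41 (drivers) without 1 array. The 2 called carbohydrases became 5 with 3 batch levels, 4 with array weights or without batch 3, 1 with a common median, trend and robust eBayes or without batch 1, and 0 over all 24 arrays, without genotype in the model, or without the Act5C-GAL4 control or labelled knockdown (0 to 2 without 1 array). The 5 called purine and one-carbon genes became 2 over all 24 arrays or without the Act5C-GAL4 control, 3 without batch 1, 1 without batch 3 or the arm-GAL4 control and 0 without genotype in the model (3 to 5 without 1 array). List medians kept their sign: carbohydrases 0.57 to 0.91, purine and one-carbon genes 0.20 to 0.31, digestive proteases 0.05 to 0.26. Of 73 genes and probe sets recomputed under the alternatives for the male comparison, 0 changed direction; marker levels and the genes of the sex, driver and batch 3 comparisons were not among them. Values near an array's lower quartile may carry mostly background, and the number of arrays limits the precision.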
